A study of Mus musculus with 6 samples.

Results

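In cultured mouse germ stem cells, the RNA recovered with an IGF2BP1 antibody was compared, gene by gene, with the RNA recovered with a control IgG. The comparison takes in 4 of the 6 libraries of the study, namely 2 of IGF2BP1 RIP and 2 of IgG RIP, and all 22564 genes of the deposited table; the 2 input libraries (RNA that was not pulled down) are left out. RIP is RNA immunoprecipitation: an antibody is added to a cell lysate, the bound protein is recovered on beads, and its attached RNA is sequenced. IgG without a cellular target gives the RNA that sticks to beads and antibody in general. All libraries came from cells described as mouse cultured germ stem cells, kept in a stem cell medium containing the growth factors GDNF and FGF2 (each 10 ng/ml), and all were read as paired ends of 150 bp. No genotype, strain or age is given for the cells, and separate cultures are not named for the replicates. The p-values therefore reflect the spread among these 4 libraries, which may be technical. How much RNA each antibody recovered is not recorded in the values, so every level below is a share of its own library.

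IGF2BP1 (also called IMP1, CRD-BP or ZBP1) is a cytoplasmic RNA-binding protein of the IGF2BP family. It has paired RNA recognition motifs and K-homology domains, binds mRNA, also at sites carrying N6-methyladenosine, and is known for holding bound mRNAs in granules where they are kept stable, transported or silenced. The family is active mainly in embryonic tissues, tumours and the germ line. GDNF and FGF2 are the growth factors that keep spermatogonial stem cells dividing in culture.

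The libraries held between 2558673 and 2836942 fragments on genes. IGF2BP1 RIP had 15022 and 14989 genes with at least 1 fragment, and IgG RIP had 13379 and 13096. Exactly 1 fragment was seen for 938 and 967 genes in IGF2BP1 RIP and for 286 in each IgG library. Mitochondrially encoded genes held 4.85% and 5.36% of fragments in the IGF2BP1 libraries and 3.14% and 3.80% in the IgG libraries. The label of the cells was checked against marker genes. The germ cell genes Ddx4, Dazl, Zbtb16, Gfra1, Ret and Etv5 were all present, with 996, 1042, 1072 and 1067 fragments of Ddx4 (IGF2BP1 replicates 1 and 2, then IgG replicates 1 and 2). Markers of other cells were present as well: Col1a1, a fibroblast collagen, had between 2125 and 3245 fragments, and Cd68, a macrophage marker, between 510 and 952. The macrophage markers Emr1 and Csf1r had fewer. Emr1 had 172, 139, 308 and 144 fragments in the same order of libraries, and Csf1r 25, 17, 0 and 123. Sox9, a Sertoli cell transcription factor, had 93, 99, 125 and 109 fragments in the same order, while Amh of Sertoli cells and Insl3 of Leydig cells were at 0 in all 4 libraries and Star had between 5 and 13 fragments. The endothelial markers Pecam1 and Cdh5 had between 0 and 39 and between 11 and 25 fragments. Summed over a list, germ stem cell markers made 6440.1 and 6362 CPM in the IGF2BP1 libraries and 5374 and 5520.4 CPM in IgG RIP, where CPM (counts per 1e6) is a library's share of fragments on a common scale after TMM normalization. The fibroblast list made 8303 and 8149 CPM against 8283 and 9259 CPM, and the macrophage list 4853 and 4689 CPM against 4925 and 5219 CPM. The part of these cells in the results was not tested, and in such bulk material fewer cells of a type and less RNA per cell cannot be told apart.

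The 2 IgG libraries were much farther apart than the 2 IGF2BP1 libraries. The biological coefficient of variation, edgeR's measure of the spread between replicates beyond counting, was 7.74% in IGF2BP1 RIP and 48.0% in IgG RIP. Across 11679 genes with enough fragments to test, log2 CPM correlated with a Pearson r of 0.979 between the IGF2BP1 libraries, 0.843 between the IgG libraries, and 0.876 to 0.877 between one library of each group. These correlations are across genes, which are not independent replicates. The IgG libraries differed by at least 2-fold in 24.7% of the genes tested and the IGF2BP1 libraries in 2.62%. The difference ran both ways: 1509 genes were at least 2-fold higher in IgG replicate 1 and 1375 in IgG replicate 2. A 4-fold difference was seen for 552 and 468 genes between the IgG libraries, and for 18 and 15 between the IGF2BP1 libraries. The histogram of differences shows the wide IgG curve beside the narrow IGF2BP1 curve.

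**Figure D1:**
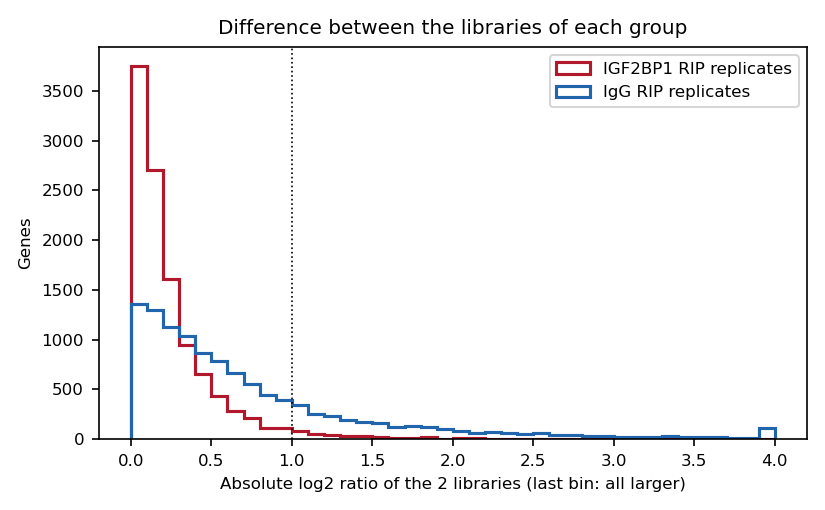
Histogram of the absolute log2 ratio between the 2 libraries of a group, with genes on the vertical axis, for the 11179 tested genes with fragments in all 4 libraries. The dotted line marks a 2-fold difference. The IGF2BP1 curve is concentrated near 0 and the IgG curve extends past the dotted line. Over all 11679 tested genes the median was 0.163 for IGF2BP1 and 0.494 for IgG, and 24.7% differed at least 2-fold between the IgG libraries.

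Which IgG library serves as the control therefore sets the direction for many genes. Taken against IgG replicate 1 alone, the IGF2BP1 mean was at least 2-fold higher for 1305 genes and at least 2-fold lower for 1141. Against IgG replicate 2 alone the numbers were 1435 and 1132. Both IGF2BP1 libraries lay above IgG replicate 1 and below IgG replicate 2 for 1545 genes (13.2%), and the opposite way round for 1574 genes (13.5%), so 3119 genes changed direction with the control library. The genes that stood farthest apart between the IgG libraries, among abundant genes in IGF2BP1 RIP, are described without a test. Zbed4, a zinc finger protein gene, had 117 and 152 CPM in the IGF2BP1 libraries, and 226 CPM in IgG replicate 1 but 54.0 CPM in replicate 2. Dynll2, a dynein light chain, had 112 and 111 CPM against 125 and 51.7 CPM. Tacc3, a protein of the mitotic spindle, ran the other way, with 181 and 194 CPM in the IGF2BP1 libraries, 61.4 CPM in IgG replicate 1 and 155 CPM in replicate 2. For Zbed4 and Dynll2 the IGF2BP1 libraries lay between the IgG libraries, and for Tacc3 above both. Robo1, an axon guidance receptor, showed 154 and 162 CPM in the IGF2BP1 libraries, beside 65.3 and 163 CPM in IgG RIP, and Ccnf, a cyclin of the F-box class, 141 and 131 CPM beside 73.9 and 180.3 CPM.

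Some genes with fragments in both IGF2BP1 libraries were listed at exactly 0 in an IgG library. Of 9264 tested genes with at least 10 CPM in the IGF2BP1 libraries, 51 were listed at 0 in IgG replicate 1, 50 in IgG replicate 2 and 13 in both. These genes were selected on their level in IGF2BP1 RIP, so zeros there are not counted. Kank2, an adaptor at the cell cortex, had 256 and 289 fragments in IGF2BP1 RIP, was listed at 0 in IgG replicate 1 and had 412 fragments in IgG replicate 2. Ulk1, a kinase that starts autophagy, had 256 and 258 fragments in IGF2BP1 RIP, with 0 listed in IgG replicate 1 and 218 fragments in replicate 2. Gpr56, an adhesion receptor, had 166 and 178 fragments in IGF2BP1 RIP, 70 in IgG replicate 1 and 0 listed in replicate 2. The values are estimated counts, and an exact 0 beside many fragments in the sister library can be a failed estimate; no fold change is given for such genes.

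The mRNA of IGF2BP1 itself did not pass the test. Igf2bp1 (ENSMUSG00000013415, GRCm38 chromosome 11, 95957163 to 96005940) had 455 and 423 CPM in the IGF2BP1 libraries and 397 and 451 CPM in the IgG libraries. The groups overlapped, and the log2 fold change was 0.05 ± 0.11 (SE), with an adjusted p of 0.859. On the deposited FPKM values, tested as log2 with limma, the log2 fold change was larger, at 0.74 ± 0.23 uncentred (adjusted p = 0.236) and 0.69 ± 0.24 centred (adjusted p = 0.274). Igf2bp2, its paralog, had 114 and 119 CPM in the IGF2BP1 libraries and 69.2 and 90.4 CPM in the IgG libraries, without overlap and without passing the test (log2 fold change 0.54 ± 0.20, adjusted p = 0.227). Igf2bp3 shares its locus span with another gene entry and had 42.0 and 44.6 CPM in the IGF2BP1 libraries beside 47.3 and 15.0 CPM in the IgG libraries. RNA levels do not measure the protein that was pulled down.

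The comparison asks which mRNAs were richer in IGF2BP1 RIP than in IgG RIP. Genes were tested with edgeR's quasi-likelihood test on the 4 libraries and called at an adjusted p under 0.05. Of 11679 genes tested, 37 were called higher in IGF2BP1 RIP (0.317%) and 107 lower (0.916%). The called genes did not overlap between the groups, which on its own is common: both IGF2BP1 libraries lay above both IgG libraries for 3162 genes (27.1%) and below both for 2963 (25.4%). A gap of at least 1.5-fold between the nearest libraries of the 2 groups was rarer, at 763 genes higher (6.53%) and 863 lower (7.39%), and held for 33 of the 37 higher and 102 of the 107 lower calls. At an unadjusted p under 0.05, 1000 genes were higher and 1212 lower. Of the same 11679 genes, the alternative tool DESeq2 called 221 higher and 331 lower. A further alternative, limma voom with a weight for each group, called 230 higher and 526 lower. Counts of a list by these methods are to be read beside these numbers. The median log2 fold change over all tested genes was -0.02. Among the 37 higher calls, 18 were at least 2-fold, and 12 shared a locus span with another gene entry, where the assignment of fragments is uncertain. Among the 107 lower calls these counts were 79 and 19. The 33 higher calls with a gap and the 18 of at least 2-fold include 6 genes listed at 0 in both IgG libraries. The size of the difference is not known for these 6 genes.

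How many genes were called turned on the IgG libraries. Without IgG replicate 1 the counts were 2541 higher and 2263 lower, with the lone IgG library assumed to vary like the IGF2BP1 pair. Without IgG replicate 2 they were 0 and 0 by edgeR, beside 5526 genes at an unadjusted p under 0.05. All 37 higher and all 107 lower calls were also called without IgG replicate 1. The test uses the spread within groups, so a small difference between the IgG libraries favours a call. The median absolute log2 ratio between them was 0.043 for the higher and 0.169 for the lower calls, against 0.494 for all tested genes. Not every called gene had close IgG libraries. The calls were also abundant, with 26 of the higher and 88 of the lower among the 2336 most abundant genes, the top of 5 classes by mean CPM. Over that class the median ratio between the IgG libraries was 0.222. The plot of each gene against each IgG library shows the calls along the diagonal and most genes spread off it.

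**Figure D2:**
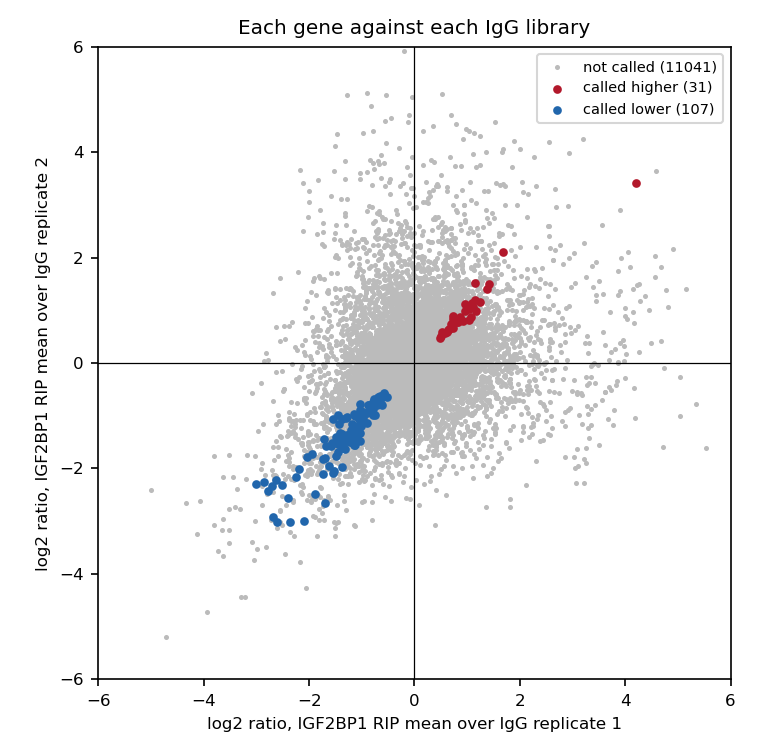
Each point is a gene with fragments in all 4 libraries (11179 genes). The horizontal axis is the log2 ratio of the IGF2BP1 RIP mean to IgG replicate 1 and the vertical axis the same to IgG replicate 2. The 31 called higher genes plotted (red; the other 6 are listed at 0 in IgG RIP) and the 107 called lower genes (blue) lie near the diagonal, and the uncalled genes (grey) spread into all 4 quadrants.

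The genes called higher in IGF2BP1 RIP included mRNAs of the translation and folding machinery, mitochondrially encoded mRNAs, cytoplasmic actin and a mixed set of single genes; 20 of the 37 were in no list. Their median level was 320.1 CPM in IGF2BP1 RIP against 159 CPM in IgG RIP, and the median log2 fold change was 0.97. Among proteins that bind mRNA or work on translation, Pabpc1, the main cytoplasmic poly(A)-binding protein, had 3670.3 and 3665 CPM in the IGF2BP1 libraries and 2209.6 and 1986 CPM in the IgG libraries. All IGF2BP1 values were above all IgG values, with a log2 fold change of 0.81 ± 0.08 and an adjusted p of 0.019. Eif3b, a scaffold subunit of initiation factor eIF3, had 659.9 and 684 CPM against 352 and 386 CPM, a log2 fold change of 0.86 ± 0.10 (adjusted p = 0.0292). Eif5a, the hypusine-containing factor that helps ribosomes through difficult peptide bonds, was higher by less, with 469 and 448 CPM against 291 and 292 CPM (log2 fold change 0.65 ± 0.10, adjusted p = 0.0498). These were 2 of 52 translation factors called higher and 0 lower, against 0.317% and 0.916% of all tested genes. The list's median log2 fold change was 0.14. Pcbp1, which binds poly(C) stretches in mRNA and also delivers iron, had 255 and 249.99 CPM in the IGF2BP1 libraries and 139.5 and 138 CPM in the IgG libraries (log2 fold change 0.86 ± 0.12, adjusted p = 0.0382). It was the only one of 40 hnRNP and SR protein genes called by edgeR. DESeq2 and limma voom each called 8 higher and 0 lower, and at an unadjusted p under 0.05 there were 14 higher and 3 lower. Over all 11679 tested genes the counts were 221 and 331 by DESeq2 and 230 and 526 by limma voom. At an unadjusted p under 0.05 they were 1000 and 1212. Zfr, a zinc finger protein that binds double-stranded RNA, had 350.3 and 378 CPM against 174 and 199 CPM, and Utp6, a factor of small ribosomal subunit assembly, 149 and 164 CPM against 70.3 and 68.2 CPM. For both genes the IgG libraries were close to each other, which favours a call, and lay well below the IGF2BP1 libraries. The log2 fold changes were 0.96 ± 0.12 and 1.17 ± 0.16.

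Of 46 chaperone genes tested, 4 were called higher and 0 lower, against 0.317% and 0.916% of all tested genes. Stip1, which links HSP70 to HSP90 (GRCm38 chromosome 19, 7020696 to 7040026), had 339 and 302 CPM in the IGF2BP1 libraries and 149.7 and 145 CPM in the IgG libraries. The smallest gap between the groups was 2.02-fold, and the log2 fold change was 1.12 ± 0.12 (adjusted p = 0.0269). Dnaja1, an HSP70 co-chaperone, had 302 and 323 CPM against 161 and 158 CPM, and Hspd1, the mitochondrial chaperonin, 309 and 342 CPM against 183 and 181 CPM; both share their locus span with another entry. Cct2, a subunit of the cytosolic chaperonin, had 1188 and 1217 CPM against 835 and 804 CPM, a log2 fold change of 0.55 ± 0.08. The list as a whole lay little above the rest, with a median log2 fold change of 0.17. It had 26 genes above both IgG libraries and 10 below both, beside 27.1% and 25.4% of all tested genes. Against each IgG library alone the median log2 ratios were 0.24 and 0.23, beside 0.01 over all tested genes in both cases. The list's median log2 fold change was 0.25 without IGF2BP1 replicate 1 and 0.15 without IGF2BP1 replicate 2. It was 0.25 without IgG replicate 1 and 0.27 without IgG replicate 2.

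Of 11 mRNAs of the mitochondrial genome, 3 were called higher and 0 lower by edgeR, against 0.317% and 0.916% of all tested genes. The list's median log2 fold change was 0.32 with all 4 libraries and moved with the library left out. It was 0.47 without IGF2BP1 replicate 1 and -0.10 without IGF2BP1 replicate 2. Without IgG replicate 1 it was -0.03, and without IgG replicate 2 it was 0.33. mt-Nd2, a subunit of respiratory complex I (mitochondrial positions 3845 to 5016), had 3497 and 3724 CPM in the IGF2BP1 libraries and 1845 and 1664 CPM in the IgG libraries, with a log2 fold change of 1.04 ± 0.08 (adjusted p = 0.0125). mt-Cytb, of complex III, had 13849 and 15407 CPM against 7127 and 7192 CPM and mt-Nd5, also of complex I, 10998 and 11522 CPM against 7220.5 and 7331 CPM. The other mitochondrial mRNAs did not follow. mt-Nd1 had 2004 and 2271 CPM in the IGF2BP1 libraries and 1991 and 2229 CPM in the IgG libraries, with overlap, and mt-Co1 had 15254 and 12563 CPM beside 7893 and 14425 CPM in the IgG libraries. mt-Nd6, the one mRNA on the light strand, lay below both IgG libraries without passing the test, at 10.3 and 24.4 CPM against 169.6 and 105 CPM (adjusted p = 0.0525). The IGF2BP1 libraries themselves disagreed on some of these mRNAs: mt-Atp8 had 124 and 758 CPM and mt-Co3 259 and 2418 CPM. The called genes mt-Cytb and mt-Nd5 are entered with the same locus span, so the split of fragments between them is uncertain. In all, 8 of the 11 share a locus span with another entry, and the 5 mitochondrial genes named here beyond those called were picked after their values were seen.

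The remaining higher calls were spread over functions. Suclg1, a subunit of succinyl-CoA ligase in the citric acid cycle (GRCm38 chromosome 6, 73248382 to 73276911), had 102 and 92.1 CPM in the IGF2BP1 libraries and 36.3 and 34.1 CPM in the IgG libraries, a smallest gap of 2.53-fold and a log2 fold change of 1.46 ± 0.21 (adjusted p = 0.046). It was the only one of 35 citric acid cycle genes called by edgeR. DESeq2 called 3 higher and limma voom 4, with 0 lower by both. Over all 11679 tested genes DESeq2 called 221 higher and 331 lower, and limma voom 230 and 526. Golga5, a golgin that tethers vesicles at the Golgi (chromosome 12, 102469134 to 102497902), had 152 and 157 CPM against 59.8 and 58.5 CPM (log2 fold change 1.38 ± 0.16, adjusted p = 0.0292). In both genes the lower IGF2BP1 library was more than 2-fold above the higher IgG library. Ubap1, part of the ESCRT-I complex of endosomal sorting, had 234 and 243 CPM in the IGF2BP1 libraries and 107 and 83.2 CPM in the IgG libraries. Ndrg4, a member of the NDRG family, had 147 and 141 CPM against 60.6 and 64.1 CPM, and Ssbp3, a partner of LIM-domain transcription complexes, 404 and 401.2 CPM against 197 and 228 CPM. These 3 genes had log2 fold changes of 1.33 ± 0.16, 1.21 ± 0.16 and 0.92 ± 0.12. Fdft1, squalene synthase, was the only cholesterol synthesis gene of 25 called by edgeR, at 303 and 309 CPM against 137 and 154 CPM, and shares its locus span with another entry.

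The 6 higher calls listed at 0 in both IgG libraries stand apart from the others. Dhx38, a helicase of the spliceosome (GRCm38 chromosome 8, 109548017 to 109565601), had 281 and 300 fragments in IGF2BP1 RIP and was listed at 0 in both IgG libraries. Fam160b1 had 165 and 179 fragments, and Mea1, which shares its locus span with another entry, 95 and 108. Chd9, a chromatin remodeller whose span is also shared, had 94 and 90 fragments. Irf2, a transcription factor of interferon signalling, had 65 and 77, and Lin9, a subunit of the MuvB cell cycle complex, 66 and 75. No gene was the reverse, at 0 in both IGF2BP1 libraries with at least 50 fragments in each IgG library. Genes listed at 0 in a single IgG library, with at least 50 fragments in each of the other 3, numbered 8 for replicate 1 and 7 for replicate 2. Without all genes listed at 0 in both libraries of a group, 29 genes were called higher, a setting added after the data were seen. These 6 genes passed the filter on low counts through the IGF2BP1 libraries alone. Their adjusted p by edgeR (0.0125 for Dhx38 and 0.0158 for Fam160b1) is therefore no support for a difference.

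**Figure D3:**
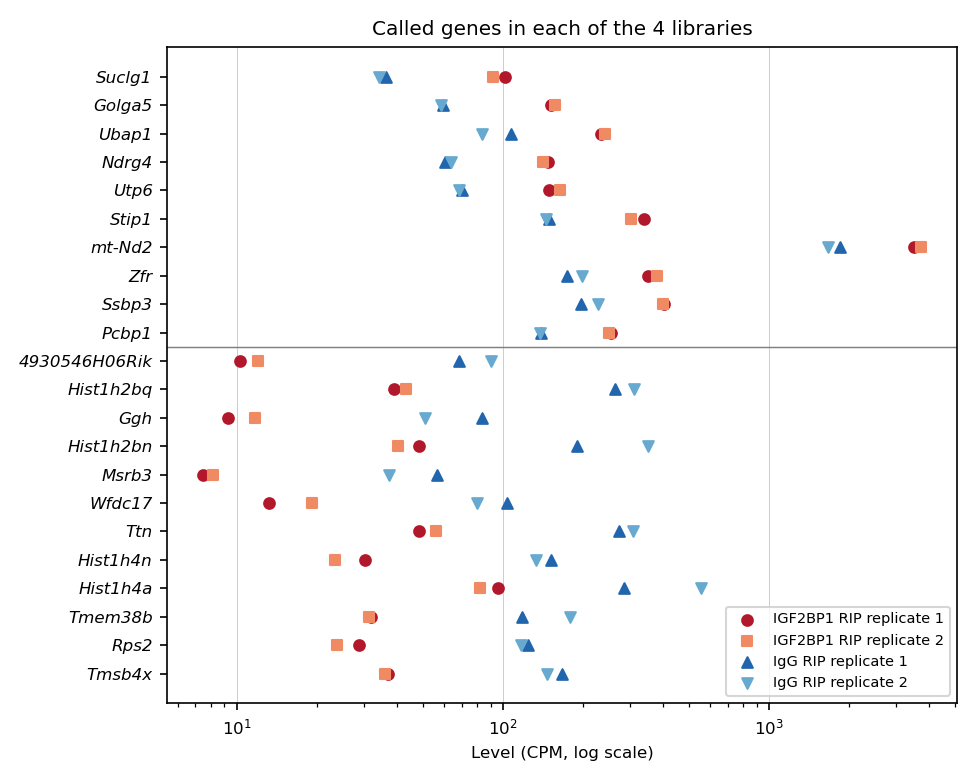
Level of each called gene chosen by size of change in each of the 4 libraries, as CPM on a log axis; higher calls are above the line and lower calls below it, and Dhx38 and Fam160b1, listed at 0 in IgG RIP, are not drawn. By the rule that chose them, for all 22 genes the 2 IGF2BP1 points (red) lie on one side of the 2 IgG points (blue).

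Genes called lower in IGF2BP1 RIP, which is to say higher in IgG RIP, outnumbered those called higher. Of the 107, 41 were in no list; the lists with the most lower calls were very large cytoskeletal and scaffold proteins (19), replication-dependent histones (14) and cytosolic ribosomal proteins (10). Their median level was 155 CPM in the IGF2BP1 libraries and 327 CPM in IgG RIP, with a median log2 fold change of -1.30. All levels are shares of a library, so a gene called lower made a smaller part of the RNA in IGF2BP1 RIP; the amount of it recovered was not measured.

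Replication-dependent histone genes encode the H1, H2A, H2B, H3 and H4 proteins that package newly made DNA. Their mRNAs end in a stem-loop in place of a poly(A) tail and are made in S phase, when the gene clusters are switched on together. Of 66 such genes tested, 0 were called higher and 14 lower, against 0.317% and 0.916% of all genes. Both IGF2BP1 libraries lay below both IgG libraries for 50 of the 66 and above both for 0, beside 25.4% and 27.1% of all tested genes. The list's median log2 fold change was -1.01, and it was -0.94 against IgG replicate 1 alone and -1.22 against IgG replicate 2 alone. In sum these genes made 5503 and 5494 CPM in the IGF2BP1 libraries, 10858 CPM in IgG replicate 1 and 12384 CPM in IgG replicate 2. The genes are close copies of one another and 22 of the 66 share a locus span, so the split of fragments among them is uncertain. By DESeq2 25 and by limma voom 33 of the 66 were called lower, with 0 higher by both and 0 higher at an unadjusted p under 0.05. Over all 11679 tested genes DESeq2 called 221 higher and 331 lower, and limma voom 230 and 526. At an unadjusted p under 0.05, 1000 of all tested genes were higher.

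By class, 3 of 6 H1 genes, 5 of 17 H2B genes and 6 of 12 H4 genes were called lower, and 0 of 19 H2A or 12 H3 genes by edgeR. At an unadjusted p under 0.05, 7 H2A and 5 H3 genes were lower and 0 higher, beside 1212 lower and 1000 higher of 11679 tested genes. DESeq2 called 2 H2A genes and 1 H3 gene lower, beside 331 of all tested genes. The median log2 fold changes of the classes were -0.73 for H1, -1.43 for H2B and H4, -0.81 for H2A and -1.02 for H3. The classes without calls thus also lay below 0. Histone genes of a class are known to share short promoter elements. They are shown here for some of the genes called lower that hold the motif, from the 3 classes that had calls, as the 130 bases before the RefSeq start of each gene on GRCm38.p6, read on the gene's strand. Capitals mark AAACACA, known as the H1 box, in H1 genes.
Hist1h1c: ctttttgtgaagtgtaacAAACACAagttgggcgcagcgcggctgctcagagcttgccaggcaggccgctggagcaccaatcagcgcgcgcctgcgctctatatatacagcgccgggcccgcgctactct
Hist1h1d: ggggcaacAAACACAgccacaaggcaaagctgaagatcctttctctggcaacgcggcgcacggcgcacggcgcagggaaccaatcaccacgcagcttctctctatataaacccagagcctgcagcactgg
Hist1h1e: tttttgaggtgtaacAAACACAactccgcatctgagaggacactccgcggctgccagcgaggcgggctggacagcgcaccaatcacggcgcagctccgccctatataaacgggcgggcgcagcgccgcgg

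In the H2B genes the capitals mark ATTTGCAT, the octamer bound by OCT factors.
Hist1h2bb: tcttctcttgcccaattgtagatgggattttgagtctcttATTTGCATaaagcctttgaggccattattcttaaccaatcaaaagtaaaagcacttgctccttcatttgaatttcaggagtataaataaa
Hist1h2bg: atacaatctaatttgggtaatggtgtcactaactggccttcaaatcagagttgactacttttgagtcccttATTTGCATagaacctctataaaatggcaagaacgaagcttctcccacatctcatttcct

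In the H4 genes the capitals mark GGTCCGC, which holds the core of the H4 subtype element.
Hist1h4c: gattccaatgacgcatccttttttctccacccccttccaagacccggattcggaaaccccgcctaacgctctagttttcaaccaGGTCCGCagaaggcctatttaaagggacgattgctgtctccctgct
Hist1h4d: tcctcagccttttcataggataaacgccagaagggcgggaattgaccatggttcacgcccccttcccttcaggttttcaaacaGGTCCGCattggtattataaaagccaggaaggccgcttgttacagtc
Hist1h4n: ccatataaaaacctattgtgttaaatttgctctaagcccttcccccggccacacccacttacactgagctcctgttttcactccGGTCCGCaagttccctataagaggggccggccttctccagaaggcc

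These windows are H1 genes at chr13:23738677-23738806 (plus strand), chr13:23554902-23555031 (plus strand) and chr13:23622559-23622688 (minus strand), H2B genes at chr13:23746604-23746733 (plus strand) and chr13:23571270-23571399 (plus strand), and H4 genes at chr13:23698459-23698588 (minus strand), chr13:23581438-23581567 (plus strand) and chr13:21832198-21832327 (minus strand), each in the order printed above. A promoter was found for 62 of the 66 tested histone genes. Over the 250 bases before the start, on both strands, AAACACA was in 5 of 6 H1 genes and 7.20% of 27025 genes with a promoter in the table. ATTTGCAT was in 7 of 16 H2B genes, 7 of 18 H2A genes and 1.81% of all genes, and GGTCCGC in 9 of 12 H4 genes and 2.96% of all genes. Among the genes called lower, AAACACA was in 3 of 3 H1, ATTTGCAT in 3 of 5 H2B and GGTCCGC in 5 of 6 H4 genes, and called genes without the motif are not shown. ATTTGCAT was thus nearly as frequent in H2A genes, without calls, as in H2B genes, with 5. None of the 3 motifs holds another within it; they were chosen after the sequences were seen, and a match is a description of letters, not of a bound factor.

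Among the genes whose promoters are shown, Hist1h4d had 408 and 392 CPM in the IGF2BP1 libraries and 1227 and 1542 CPM in the IgG libraries (log2 fold change -1.79 ± 0.13, adjusted p = 0.0125). Hist1h4n had 30.3 and 23.4 CPM against 151 and 133 CPM (log2 fold change -2.40 ± 0.22). Every IgG value was more than 2-fold above every IGF2BP1 value for both genes. Hist1h2bg, which shares its locus span, had 97.3 and 112 CPM against 537 and 846 CPM. Hist1h1c, the most abundant H1 gene called, showed a small difference, with 874 and 852 CPM against 1290.0 and 1279 CPM (log2 fold change -0.57 ± 0.08, adjusted p = 0.0381). The largest difference among the called histone genes was in Hist1h2bq (GRCm38 chromosome 13, 21806412 to 21810199), with 38.8 and 43.2 CPM in the IGF2BP1 libraries and 263 and 311 CPM in the IgG libraries, a smallest gap of 6.09-fold and a log2 fold change of -2.81 ± 0.16 (adjusted p = 0.0115). Hist1h2bn and Hist1h4a were lower by a similar amount, but with IgG libraries far apart, at 189 and 351 CPM for Hist1h2bn and 286 and 556 CPM for Hist1h4a. The list of replacement histones, most of which are made outside S phase and carry poly(A) tails, had 0 of 11 genes called by edgeR or DESeq2. In it 1 gene was called lower by limma voom, and 2 were lower at an unadjusted p under 0.05. Both IGF2BP1 libraries lay below both IgG libraries for 5 of the 11 and above both for 0, beside 25.4% and 27.1% of all tested genes. H3f3b had 340.3 and 337 CPM in the IGF2BP1 libraries and 355 and 326 CPM in the IgG libraries. H2afx had 280 and 242 CPM against 349 and 346 CPM, without passing the test (log2 fold change -0.41 ± 0.12, adjusted p = 0.153). The list's median log2 ratio was -0.42 against IgG replicate 1 and 0.01 against IgG replicate 2.

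Cytosolic ribosomal protein mRNAs start with a terminal oligopyrimidine tract that ties their translation to growth signals. Of 83 genes, 2 were called higher and 10 lower, against 0.317% and 0.916% of all tested genes. There were 50 genes below both IgG libraries and 11 above both, beside 25.4% and 27.1% of all tested genes. The median log2 fold change was -0.48, and the median log2 ratio was -0.54 against IgG replicate 1 and -0.26 against replicate 2. Rps3, of the small subunit (GRCm38 chromosome 7, 99477896 to 99483738), had 377 and 369 CPM in the IGF2BP1 libraries and 846 and 830.5 CPM in the IgG libraries (log2 fold change -1.17 ± 0.09, adjusted p = 0.0125). Rps20 had 135 and 105 CPM against 383 and 354 CPM, and Rps2 28.9 and 23.7 CPM against 124 and 117 CPM, with log2 fold changes of -1.62 ± 0.16 and -2.19 ± 0.22. For these small-subunit genes even the lower IgG library was more than 2-fold above the higher IGF2BP1 library. Rpl12, of the large subunit, had 104 and 104 CPM against 270.0 and 267 CPM, and Rpl23a 179 and 180.2 CPM against 431 and 503 CPM; both share their locus span. The 2 genes called higher, named after their values were seen, were Rpl4, with 1953 and 1998 CPM against 1392 and 1392 CPM (log2 fold change 0.51 ± 0.07), and Rpl15, which shares its span, with 237 and 186 CPM against 65.7 and 48.4 CPM. The large-subunit genes had a median log2 fold change of -0.34 (51 genes, 2 higher and 4 lower) and the others -0.66 (32 genes, 0 higher and 6 lower). Other mRNAs with a terminal oligopyrimidine tract had 1 of 25 called higher, Pabpc1, and 0 lower, with a median of 0.19. Nuclear genes of mitochondrial ribosomal proteins had 0 of 76 called by edgeR and a median of -0.11.

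Of 44 genes for very large cytoskeletal, scaffold and ubiquitin-ligase proteins, 0 were called higher and 19 lower, against 0.317% and 0.916% of all tested genes. The list, like the others, was chosen with earlier results of these data known, so its share is a description and no test. Lower calls numbered 48 of 2336 genes in the longest of 5 length classes and 88 of 2336 in the most abundant class. DESeq2 called 1 of the 44 higher and 23 lower, beside 221 and 331 of all 11679 tested genes. Both IGF2BP1 libraries lay below both IgG libraries for 36 and above both for 2, beside 25.4% and 27.1% of all tested genes. The list's median log2 fold change was -0.81, and its median log2 ratio was -0.79 against IgG replicate 1 and -0.80 against IgG replicate 2, so the IgG libraries gave nearly the same value. Summed, the list made 14524 and 14736 CPM in the IGF2BP1 libraries and 27416 and 27426 CPM in IgG RIP. Dync1h1, the heavy chain of cytoplasmic dynein (GRCm38 chromosome 12, 110599631 to 110666945), had 835 and 821 CPM in the IGF2BP1 libraries and 2209.6 and 2087 CPM in the IgG libraries (log2 fold change -1.38 ± 0.08, adjusted p = 0.0115). Huwe1, a HECT ubiquitin ligase, had 1808 and 1839 CPM against 3178 and 3163 CPM (log2 fold change -0.80 ± 0.06), and Ubr4, a further ubiquitin ligase with a shared span, 866 and 887 CPM against 2062 and 2304 CPM. The libraries of a group agreed closely on these abundant genes and the groups were apart, which the test itself favours in a called gene. Ttn, the giant protein of muscle sarcomeres (chromosome 2, 76703980 to 76982547), had low levels in IGF2BP1 RIP, at 48.5 and 55.9 CPM, and 274 and 308 CPM in IgG RIP, with a smallest gap of 4.90-fold and a log2 fold change of -2.48 ± 0.15 (adjusted p = 0.0115). The list's median log2 fold change was -0.78 without IgG replicate 1 and also -0.78 without IgG replicate 2. The plot of members by list shows most of these genes to the left of 0.

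**Figure D4:**
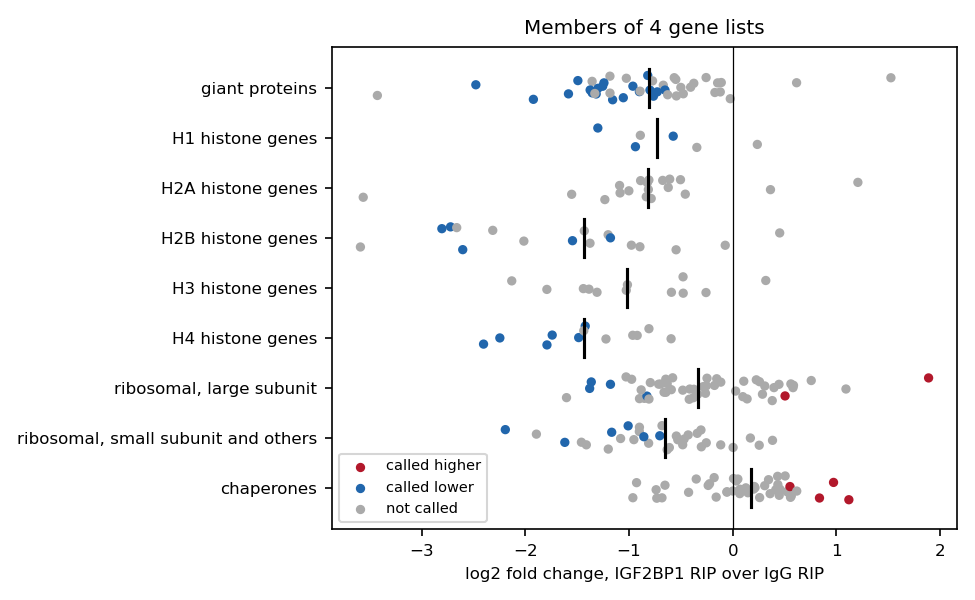
Log2 fold change of IGF2BP1 RIP over IgG RIP (horizontal axis) for every tested member of 4 lists, with histones by class and ribosomal proteins by subunit; points are genes, spread vertically for visibility, and black bars are medians. The medians run from -1.43 for H2B and H4 genes and -0.81 for giant proteins to 0.17 for chaperones, with called genes in colour. The lists were chosen with earlier results of these data known.

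Transcript length ran alongside these groups. Length was gauged by an index, the deposited count over the deposited FPKM, relative to the median gene. In the longest of 5 classes of tested genes (2336 genes) 4 were called higher and 48 lower, with a median log2 fold change of -0.15. In the shortest class (2336 genes) there were 10 higher and 31 lower, and a median of -0.04. The 3 middle classes together held 23 higher and 28 lower calls. The median length index was 0.75 for the higher and 1.43 for the lower calls, against 1.00 for all tested genes. Lower calls were thus frequent at both ends, among long genes such as Dync1h1 (index 6.08) and among short ones such as Hist1h4d (index 0.0895). The part of length in these differences was not tested.

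Among 96 genes of chromatin modifiers and remodellers, 1 was called higher (Chd9, with a shared span and listed at 0 in IgG RIP) and 6 lower. Over all tested genes 0.317% were called higher and 0.916% lower. The list's median log2 fold change was -0.06. The histone H3 lysine 4 methyltransferases Kmt2a, Kmt2d and Kmt2c were among the lower calls. Kmt2a (GRCm38 chromosome 9, 44803355 to 44881296) had 413 and 450.1 CPM in the IGF2BP1 libraries and 989.9 and 1043 CPM in the IgG libraries (log2 fold change -1.24 ± 0.09, adjusted p = 0.0125). Kmt2d had 464 and 485 CPM against 1004 and 1097 CPM, and Kmt2c 611 and 612 CPM against 1029 and 1212 CPM. In all 3 genes each IgG library exceeded each IGF2BP1 library by more than 1.5-fold. Tet3, which oxidises methylated cytosine, was the only one of 16 DNA methylation genes called by edgeR (DESeq2 called 1 higher and 1 lower), at 95.5 and 104 CPM in the IGF2BP1 libraries and 204 and 194 CPM in the IgG libraries (log2 fold change -0.99 ± 0.14). Of 265 Zfp zinc finger genes 2 were called lower, Zfp292 and Zfp407. Zfp292 had 173 and 179 CPM in the IGF2BP1 libraries beside 458 and 691 CPM in the IgG libraries. In the mRNA decay and silencing list, 3 of 63 genes were called lower and 0 higher: Smg1, the kinase of nonsense-mediated decay, Cnot6l, a deadenylase of the CCR4-NOT complex, and Rc3h2, a relative of roquin. Smg1 had 504 and 550.2 CPM against 1067 and 1210.3 CPM (log2 fold change -1.11 ± 0.10, adjusted p = 0.019).

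The ferritin genes, which store iron and whose translation is set by an iron-responsive element, were called lower. Fth1, the heavy chain, had 455 and 455 CPM in the IGF2BP1 libraries and 1200.2 and 1361 CPM in the IgG libraries (log2 fold change -1.49 ± 0.10, adjusted p = 0.0115). Ftl1, the light chain, had 964 and 910.0 CPM against 1510.5 and 1456 CPM (log2 fold change -0.66 ± 0.08). Of the 13 genes of iron storage and uptake they were the 2 called lower, with Pcbp1 called higher and a median of -0.12. Over all tested genes 0.317% were called higher and 0.916% lower. Tfrc, the transferrin receptor, had 247 and 263 CPM in the IGF2BP1 libraries beside 233 and 244 CPM in IgG RIP, close to no difference.

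Actin and its partners went different ways. Actb, cytoplasmic beta-actin, was called higher, with 3328 and 3173 CPM in the IGF2BP1 libraries and 2167 and 2196 CPM in the IgG libraries (log2 fold change 0.58 ± 0.06, adjusted p = 0.0292). Tmsb4x, thymosin beta-4, which sequesters actin monomers, was called lower, at 37.1 and 36.1 CPM against 166 and 147 CPM (log2 fold change -2.10 ± 0.18, adjusted p = 0.0158). Myl12a, a myosin light chain, and Plec, the linker plectin, were lower too and share their spans. In all, 1 of 51 genes of this list was called higher and 4 lower, against 0.317% and 0.916% of all tested genes. The list's median was -0.02.

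Of 24 macrophage marker genes, 3 were called lower and 0 higher, against 0.916% and 0.317% of all tested genes. Ccl7, a chemokine with a shared span, had 27.1 and 25.1 CPM in the IGF2BP1 libraries and 179 and 140.2 CPM in the IgG libraries. Fcer1g, an Fc receptor chain, had 27.8 and 25.8 CPM against 110.2 and 92.6 CPM, and Wfdc17 13.2 and 19.1 CPM against 104 and 79.9 CPM, with log2 fold changes of -1.92 ± 0.23 and -2.50 ± 0.30. At an unadjusted p under 0.05, 4 of the 24 were higher and 7 lower, beside 1000 and 1212 of all 11679 tested genes. DESeq2 and limma voom each called 1 of the 24 higher and 5 lower. Over all tested genes DESeq2 called 221 higher and 331 lower, and limma voom 230 and 526. Both IGF2BP1 libraries lay above both IgG libraries for 9 of the 24 and below both for 10, beside 27.1% and 25.4% of all tested genes. Markers named after their values were seen went other ways: Cd68 had 339 and 334 CPM against 199 and 255 CPM without passing the test, and Lyz2, lysozyme, 2849 and 2752 CPM beside 2469.9 and 2938 CPM. The remaining genes with the largest lower calls belonged to no list or to a single list member. Ggh, a lysosomal hydrolase of folates, had 9.26 and 11.7 CPM in the IGF2BP1 libraries and 83.6 and 51.0 CPM in the IgG libraries. Msrb3, a methionine sulfoxide reductase, had 7.48 and 8.14 CPM against 56.7 and 37.5 CPM. Tmem38b, a cation channel of the endoplasmic reticulum, had 32.1 and 31.5 CPM against 118 and 179 CPM, and 4930546H06Rik 10.3 and 12.04 CPM against 68.4 and 90.0 CPM. Their log2 fold changes were -2.68 ± 0.37, -2.58 ± 0.38, -2.23 ± 0.26 and -2.82 ± 0.29, and each rested on fewer than 20 CPM in the IGF2BP1 libraries except Tmem38b.

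A list of 36 tested mRNAs that IGF2BP proteins are known to bind, mostly in human cells, was described next. Of these, 2 were called higher (Pabpc1 and Actb, above) and 2 lower, against 0.317% and 0.916% of all tested genes. The median log2 fold change was -0.06. Igf2, the growth factor mRNA after which the family is named (GRCm38 chromosome 7, 142650766 to 142670356), was lower in IGF2BP1 RIP, with 257 and 251 CPM against 762 and 760.4 CPM. The 4 libraries agreed closely within each group, which favours a call. The smallest gap was 2.96-fold, and the log2 fold change was -1.58 ± 0.09 (adjusted p = 0.0115). Rac1, a small GTPase of the cytoskeleton, was also lower, at 133 and 129.6 CPM against 245 and 253 CPM (log2 fold change -0.92 ± 0.12, adjusted p = 0.0342). Other members, picked for their standing in the field, did not pass the test. Myc had low levels, with 13.5 and 9.91 CPM in the IGF2BP1 libraries and 7.82 and 3.75 CPM in the IgG libraries (log2 fold change 1.02 ± 0.67, adjusted p = 0.474), and Cd44, a hyaluronan receptor, 170.0 and 198 CPM against 191 and 220.5 CPM with overlap. Mycn had 144 and 153 CPM against 117 and 93.4 CPM, above both IgG libraries without passing the test (adjusted p = 0.213). Over the list, 10 of 36 genes lay above both IgG libraries, 12 below both and 12 between the 2 IgG libraries. Over all tested genes, 27.1% lay above both, 25.4% below both and 3119 of 11679 between.

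Germ cell genes gave few calls. Of 34 genes of undifferentiated spermatogonia, 0 were called in either direction by edgeR, and the median log2 fold change was 0.23. In this list 14 genes lay above both IgG libraries and 4 below both, beside 27.1% and 25.4% of all tested genes. Zbtb16, the transcription factor PLZF of stem spermatogonia, had 510.3 and 527 CPM in the IGF2BP1 libraries and 555 and 598 CPM in the IgG libraries (adjusted p = 0.442). Ccnd2, a cyclin of stem cell self-renewal, had 786 and 786 CPM beside 620.2 and 818 CPM in the IgG libraries. Gfra1, the co-receptor that binds GDNF, had 161 and 176 CPM in the IGF2BP1 libraries and 76.2 and 118 CPM in the IgG libraries. Ret, its signalling partner, had 533 and 513 CPM against 403 and 370.1 CPM. Both receptor genes lay above both IgG libraries without passing the test, with log2 fold changes of 0.79 ± 0.23 and 0.44 ± 0.10 and adjusted p of 0.158 and 0.108. Dazl, an RNA-binding protein of germ cells, had 805 and 883 CPM against 800.0 and 664 CPM, and Dmrt1, which holds spermatogonia out of meiosis, 637 and 597 CPM against 375 and 275 CPM (log2 fold change 0.92 ± 0.16, adjusted p = 0.0699). Tex15, which guides transposon silencing and meiotic recombination in the male germ line, was the single gene of the germ cell lists called by edgeR, and it was lower, at 295 and 306 CPM in the IGF2BP1 libraries beside 652 and 881 CPM in IgG RIP (log2 fold change -1.35 ± 0.16, adjusted p = 0.0305). It counts in the lists of meiosis (1 of 20) and of the piRNA pathway (1 of 26), beside 0.916% of all tested genes called lower. DESeq2 called 2 of 34 genes of undifferentiated spermatogonia, 3 of 19 pan-germ cell genes and 4 of 26 piRNA pathway genes higher. For limma voom the counts were 3, 3 and 4, and lower calls were 0, 0 and 1 by both tools. Over all 11679 tested genes DESeq2 called 221 higher and 331 lower, and limma voom 230 and 526.

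Several lists of metabolic and growth genes had medians above 0 against each IgG library and yet few or no calls. Fatty acid synthesis and oxidation had 0 of 36 called by edgeR and a median log2 fold change of 0.53. The list had 22 genes above both IgG libraries and 5 below both, beside 27.1% and 25.4% of all tested genes. Its most abundant member lay the other way without passing the test (adjusted p = 0.152), with Fasn, fatty acid synthase, at 308 and 315 CPM in the IGF2BP1 libraries and 384 and 415 CPM in the IgG libraries. High-mobility group proteins had a median of 0.40 over 15 genes, where Hmga1, an architectural chromatin protein, had 361 and 356 CPM against 249 and 186 CPM (adjusted p = 0.107). Aminoacyl-tRNA synthetases had a median of 0.30 over 37 genes, where Eprs had 666 and 656 CPM against 445 and 465 CPM (log2 fold change 0.54 ± 0.09, adjusted p = 0.0613). For glycolysis the median was 0.30 over 28 genes, where the higher IgG library of Pkm, pyruvate kinase, was well apart from the lower (820.3 and 791 CPM in the IGF2BP1 libraries, 646 and 442 CPM in IgG RIP). DNA replication genes had a median of 0.29 over 62 genes, with 29 above both and 10 below both (27.1% and 25.4% over all tested genes). Mcm6, of the replicative helicase, had 510.3 and 501 CPM against 359 and 453 CPM. The machinery of N6-methyladenosine, the mark that IGF2BP proteins can read, had 0 of 19 genes called and a median of 0.08; Hnrnpa2b1 had 780.0 and 801 CPM against 562 and 365 CPM. Lists for cell cycle (56 genes), p53 and apoptosis (35), growth factor and mTOR signalling (62), Wnt, Notch and TGF-beta signalling (57), kinesins (37), proteasome (38), nuclear genes of the respiratory chain (77), secretory pathway (59), spermatogonial differentiation (20) and fibroblast markers (35) had 0 genes called by edgeR and medians between -0.15 and 0.11. The lists of Mediator and general transcription (70 genes), AMPK (13), PP2A (19) and Sertoli, Leydig and endothelial markers (10) also had 0 called, with medians of 0.15, 0.12, 0.23 and -0.18. The lists without a call by edgeR numbered 25, the IGF2BP family included. At an unadjusted p under 0.05 such a list had 0 to 15 genes higher and 0 to 13 lower. DESeq2 called 0 to 5 of its genes higher and 0 to 4 lower. Over all 11679 tested genes 1000 were higher and 1212 lower at that p, and DESeq2 called 221 and 331. The plot of lists shows how far each median moves with the IgG library used.

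**Figure D5:**
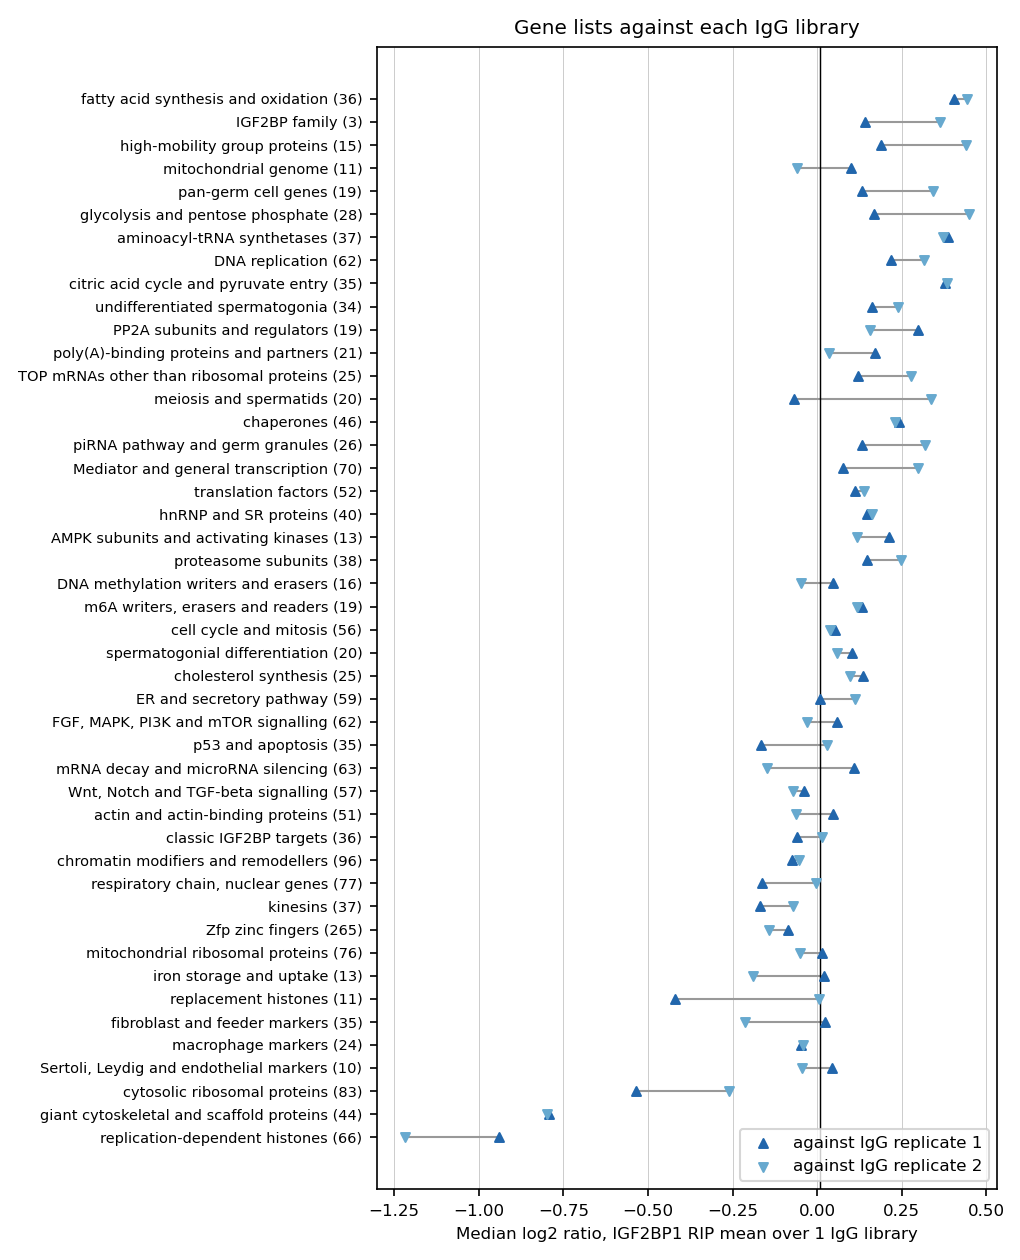
Median over each list of the log2 ratio of the IGF2BP1 RIP mean to IgG replicate 1 (upward triangles) and to IgG replicate 2 (downward triangles); the number of tested genes is in parentheses and the vertical line is the median of all tested genes (0.01). Replication-dependent histones and giant proteins lie far to the left for both IgG libraries, with giant proteins at -0.79 and -0.80, while others, such as replacement histones at -0.42 and 0.01, move with the control library.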

How the data were processed

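The submitters deposited 1 table, giving every library a count column and an FPKM column. The values named counts are, as deposited, estimated counts multiplied by 1 factor per library: between 92.8% and 94.4% of values above 0 were whole multiples of a single step within 0.01, with steps of 0.954 to 1.03. Dividing each value by its library's step and rounding gave fragments. The FPKM values deposited by the authors served in 2 alternatives and for the length index. FastQC, cutadapt 1.9.3 and build mm39 are named per the submitters' processing notes; no aligner or counter is given in the sources used here. Among 20874 genes with a known GRCm38 position, 99.89% overlapped it, so coordinates are read as GRCm38. An exact locus span is shared with another entry by 5875 genes.

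Genes were kept with filterByExpr (minimum 10 fragments), scaled by TMM and tested in edgeR 4.0.16 (R 4.3.3, quasi-likelihood, no covariate, 2 residual degrees of freedom), with Benjamini-Hochberg adjustment over all 11679 genes tested. Fold changes are log2 values with a standard error (±) derived from the F statistic. DESeq2 1.42.0 and limma 3.58.1 were alternatives; code was tested on simulated data. Genes were named by rule: the 12 largest called changes each way with at least 20 CPM, no overlap and an unshared span; the 6 widest IgG differences each way; up to 4 called members of a list or, where 0 were called, the 2 most abundant; and the IGF2BP family. Genes named beyond this rule were chosen after their values were seen. Members and the 46 lists were chosen with earlier results of these data known, and lists were described, not tested. Deviations from group means correlated at 0.0031 between same-numbered libraries, and the numbers are not taken to pair the samples. Protein sequences were not used here; histone promoters from RefSeq (GRCm38.p6) are shown instead. Depth was 2558673 to 2836942 fragments a library.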

Additional observations from a re-analysis of the deposited data

How the results depend on the processing

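Against 37 higher and 107 lower calls, the counts were 0 and 0 without a filter on low counts (2333 genes at an unadjusted p under 0.05), and 62 higher with a stricter filter. They were 396 and 456 with all 6 libraries in the model, 221 and 331 by DESeq2 and 230 and 526 by limma voom with a weight for each group. On log2 FPKM the counts were 0 and 0, uncentred (2048 genes at an unadjusted p under 0.05) and centred (1988 genes). With the replicate number as a block they were 129 and 220; the numbers are shared labels only. Leaving out 1 library at a time gave 0 to 2541 higher and 0 to 2263 lower, the extremes coming from the IgG libraries. Without IGF2BP1 replicate 1, 24 of the 37 and 74 of the 107 calls remained, and without replicate 2, 19 and 73. DESeq2 size factors in edgeR, counts rounded as deposited, and leaving out shared spans or, chosen after seeing the data, genes listed at 0 kept both counts within 1.5 times. The cause of these changes was not tested.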
